A study of Mus musculus with 6 samples.

Results

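The genes of the cytosolic ribosomal proteins were taken from the table by symbol: every protein-coding gene named Rpl or Rps with a number, together with Rpsa, Rplp0, Rplp1 and Rplp2, and without the Rps6k kinases. The rule took 84 genes of the annotation, and 83 of the 22310 genes of the table, 51 of the large subunit and 32 of the small subunit. Rpl10l, a paralog known from testis, was the one gene of the rule with no line in the table. The libraries were made from primary mammary tumor cells of the MMTV-PyMT model, in which the mouse mammary tumor virus promoter drives the polyoma middle T antigen in mammary epithelium, here on the FVB/N background and labelled WT. The cells were plated for 1 day in DMEM/F12 supplemented with hEGF at 20 ng/ml, insulin at 10 µg/ml, penstrep at 1% and FBS at 2%, and then sorted as metastasis-initiating cells (MICs, Lin-CD24+CD90+) or non-MICs (Lin-CD24+CD90-), where Lin stands for the blood and endothelial markers CD45, CD31 and Ter119. There were 3 libraries of each population, numbered 1 to 3 in both, and a same-numbered MIC and non-MIC library is called a pair here. The labels give no age, the study's methods describe adult mice, and the libraries are described by the study as independent experiments or tumors without saying which, so p-values measure the spread between these libraries.

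A ribosome joins a large subunit, which forms the peptide bonds, with a small subunit, which reads the mRNA, and each ribosomal protein is in most cases present in a single copy per ribosome. Their mRNAs are among the most abundant of a growing cell, are short, and in many cases begin with a terminal oligopyrimidine (TOP) motif, a cytosine followed by a run of pyrimidines, through which mTOR and Larp1 set their translation. Each gene also has many processed pseudogenes, retrotransposed copies of its mRNA whose sequence can be nearly the same, so that a short read may belong to the gene or to a copy.

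The starts of 7 of these genes are shown because the results below turn on them. Each line gives 10 bases before and 20 bases from the RefSeq gene start on, on the gene's strand (build GRCm38.p6), and the capitals mark a run of at least 5 pyrimidines (C or T) that opens with a cytosine no more than 5 bases from the start. The first 5 hold such a run and the last 2 do not, and for Rpl35a and Rps24, which have several RefSeq starts, the start with a run is shown.
Rpl22l1 (chr3:28805498-28805527, + strand): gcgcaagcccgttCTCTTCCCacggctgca
Rps27 (chr3:90213629-90213658, - strand): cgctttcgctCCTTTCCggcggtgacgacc
Rps24 (chr14:24490668-24490697, + strand): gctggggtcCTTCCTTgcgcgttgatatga
Rpl35a (chr16:33056472-33056501, + strand): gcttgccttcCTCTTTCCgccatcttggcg
Rps18 (chr17:33955646-33955675, - strand): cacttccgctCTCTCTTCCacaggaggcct
Rps25 (chr9:44407704-44407733, + strand): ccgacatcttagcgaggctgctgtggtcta
Rps3 (chr7:99483690-99483719, - strand): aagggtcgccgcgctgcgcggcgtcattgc

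RefSeq promoters were held for 63 of the 83 genes, in 75 entries. A pyrimidine run of this kind stood exactly at the start in 17.3% of those entries and in 2.51% of the 32851 promoters of all genes, searched on the gene's strand only. Within 5 bases of the start the shares were 41.3% and 18.3%. The 29 genes with a run within 5 bases had a median log2 difference between MICs and non-MICs of 0.42, and the 34 without one had a median of 0.31, which is given as a description of these genes and of the letters in this window alone.

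Together the 83 genes took more of the library in MICs than in non-MICs in pairs 1 and 2, and about as much in both populations in pair 3. Their summed values were 5.34%, 5.93% and 3.99% of the library in MICs against 3.90%, 4.0% and 4.16% in non-MICs 1, 2 and 3. MICs 1 and 2 stood above all other libraries, while MIC 3 lay among the non-MICs. The means were 5.09% ± 0.995 in the MICs against 4.02% ± 0.133 in the non-MICs (SD, n = 3 each), so that they differed by 1.07 percentage points, about the size of the SD of the MICs. By pair the difference was 1.44, 1.93 and -0.172 percentage points. Without MIC 3 the difference of the means was 1.62 percentage points, and without MIC 2 it was 0.646. In bulk samples a lower summed value can mean fewer cells with the RNA or less RNA per cell, and the table does not tell these apart.

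**Figure D1:**
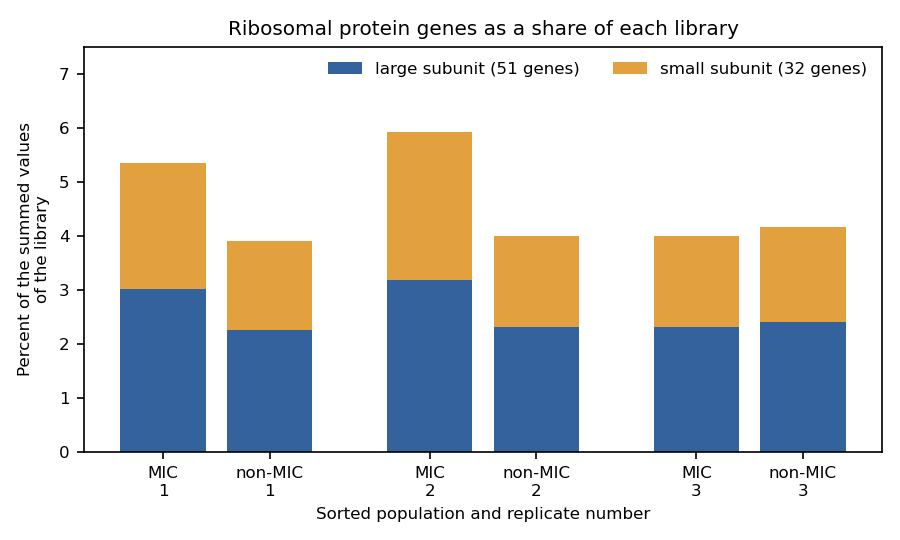
The summed values of the ribosomal protein genes in each library, as a percent of all values of that library, with the large subunit below and the small subunit above. MICs 1 and 2 reach 5.34% and 5.93%, and the other 4 libraries lie between 3.90% and 4.16%.

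Both subunits went the same way. The large subunit took 3.02%, 3.18% and 2.31% of the library in MICs 1, 2 and 3, against 2.25%, 2.31% and 2.40% in non-MICs. For the small subunit these shares were 2.33%, 2.75% and 1.68% in MICs against 1.65%, 1.69% and 1.76% in non-MICs. As a group difference the large subunit was 0.513 and the small subunit 0.555 percentage points higher in MICs, each with 2 of 3 pairs in that direction.

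By gene, the log2 difference between populations, computed on log2(value + 1) and averaged over the libraries, was above 0 for 78 of the 83 genes, beside 45.8% of all genes. The median over the large subunit was 0.30 and over the small subunit 0.40, with -0.045 over all genes. In pair 1 the median differences were 0.41 for the large and 0.52 for the small subunit, and 80 of the 83 genes were higher in the MIC library (45.2% of all genes). In pair 2 they were 0.51 and 0.74, with 76 genes higher (53.5% of all genes). In pair 3 they were -0.056 and -0.082, with 16 genes higher (35.8% of all genes), and the quartiles of the members were -0.121 and -0.0172. Pair 3 was close enough to 0 for the scaling to matter: under TMM factors, which move all genes of a library by the same factor, its median was 0.014 for the large subunit, a change of sign, and -0.012 for the small subunit, and 41 of the 83 genes were higher in MIC 3. The medians of pairs 1 and 2 stayed above 0 under TMM factors and under quantile normalization.

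The medians over all pairs rested unevenly on the libraries. Without MIC 3 the median of the large subunit was 0.52, and without MIC 1 it was 0.19. With the replicate number as a block and without pair 3, it was 0.46 for the large and 0.65 for the small subunit, and without pair 2 it was 0.18 and 0.22. Without MIC 2 the median of the small subunit was 0.23.

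**Figure D2:**
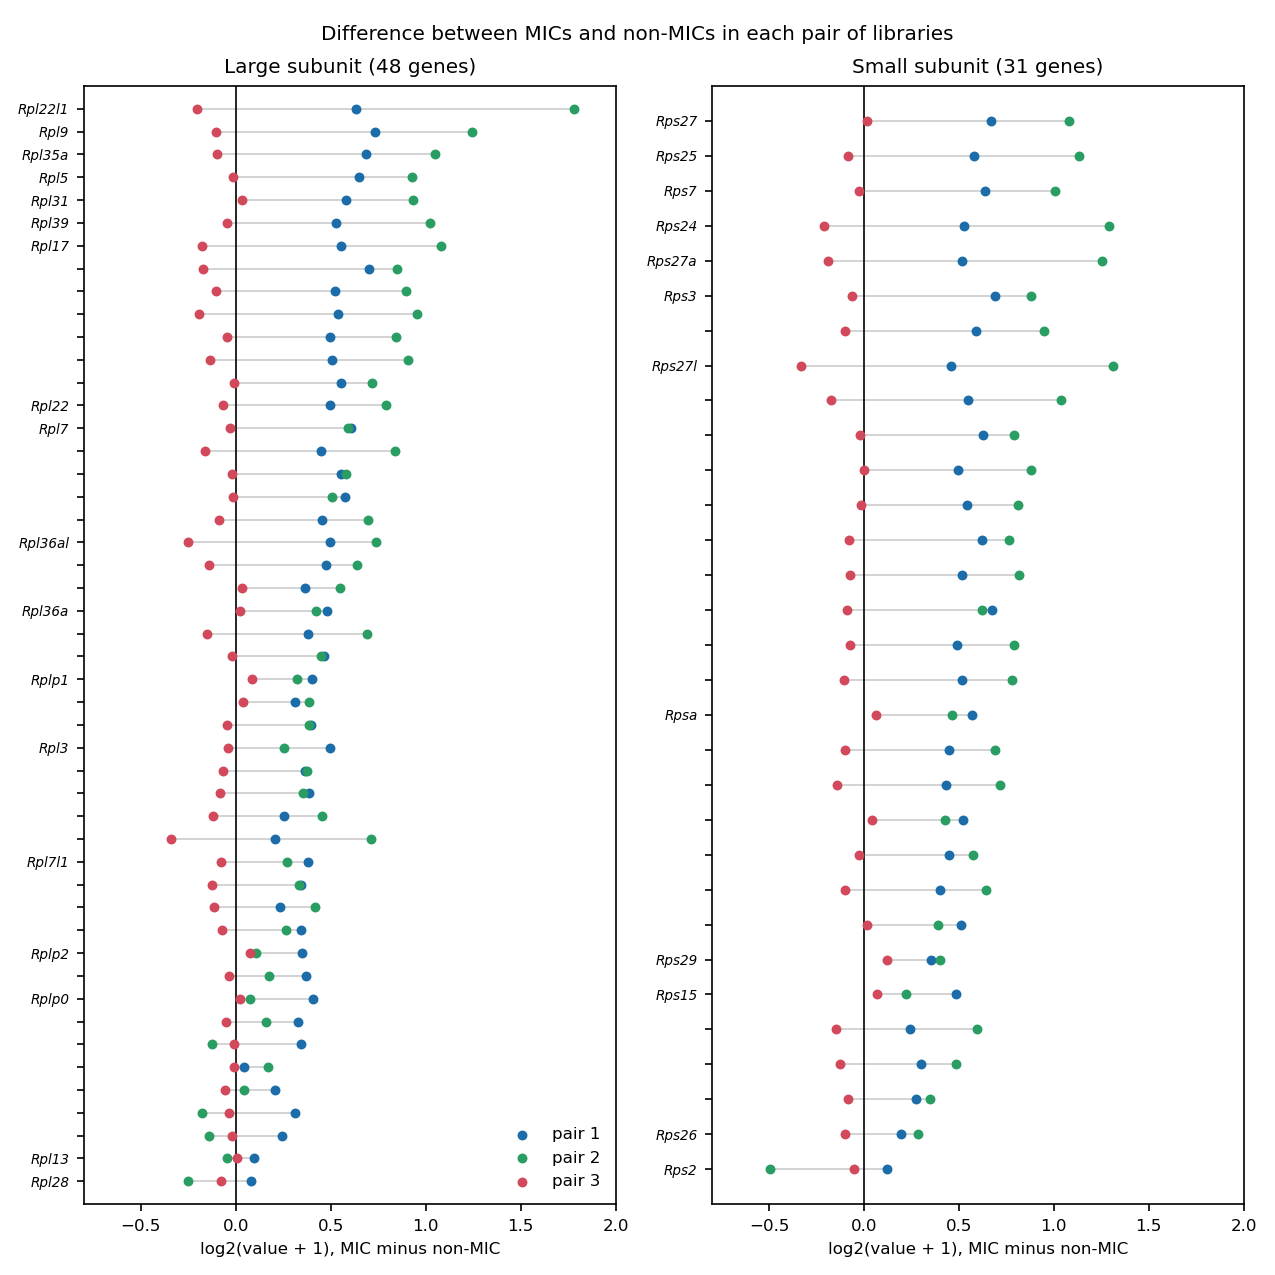
Each row is a ribosomal protein gene with a mean value of at least 100 (48 of the large and 31 of the small subunit), ordered by its mean difference and with the names of the genes chosen for description, and the points give log2(value + 1) in the MIC library minus the non-MIC library of pairs 1, 2 and 3. Pairs 1 and 2 lie to the right of 0 for nearly all genes, and pair 3 lies close to 0.

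In all, 73 of the 83 genes were higher in MICs in both pair 1 and pair 2, 43 of the large and 30 of the small subunit, beside 28.6% of all genes. Of these, 59 were lower in MICs in pair 3, a pattern picked after the values were seen, which 15.6% of all genes had. The other 14 were higher in every pair, beside 12.5% of all genes. None of the 83 genes was lower in every pair, beside 18.8% of all genes. The count of genes higher in every pair was 32 under TMM factors, where 14.8% of all genes were. Leaving pair 3 aside, a choice made after seeing that most members were not higher in it, both MIC libraries lay above both non-MIC libraries for 72 of the 83 genes. The share over all genes was 17.7%. With all 6 libraries, the populations did not overlap for 4 genes, Rpl31, Rpl36a and Rps27 among them, beside 2.69% of all genes, and 0 members had every MIC library below every non-MIC library, beside 3.55%. Across the 79 genes with a mean value of at least 100, the differences of pair 1 and pair 2 went together (Pearson's r = 0.724), those of pair 1 and pair 3 did not (r = -0.0274), and those of pair 2 and pair 3 ran against each other (r = -0.463). These genes share libraries, their base composition was not measured, and the values are a description.

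Tested gene by gene with limma over all 22310 genes, none of the 83 genes passed an adjusted p of 0.05, and 0% of all genes did. The smallest adjusted p of a member was 1.00. At an unadjusted p under 0.05 there was 1 member, Rps27, higher in MICs, with 0.708% of all genes higher and 0.735% lower at that limit. On the recovered reads without a block, edgeR called 0 members (0% of all genes) and DESeq2 called 0 (0.00452% of all genes). At an unadjusted p under 0.05 without the block, edgeR had 1 member higher, Rps27, beside 0.807% of all genes higher and 0.515% lower, and DESeq2 had 5 members higher, beside 0.998% higher and 0.203% lower. With the replicate number as a block, limma called 0 members, the smallest adjusted p being 0.418, while 0.121% of all genes passed as higher and 0.00896% as lower, 0.13% in all. With the block, edgeR's quasi-likelihood test called 1 member, Rpl22l1, higher in MICs, beside 1.04% of all genes called higher and 0.372% called lower, 1.41% in all. DESeq2 with the block called 0 members, beside 0.735% of all genes called higher and 0.154% called lower, 0.889% in all. At an unadjusted p under 0.05 with the block, 14 members were higher in limma, 24 in edgeR and 38 in DESeq2, and 0 were lower in each of them, beside 5.24%, 5.89% and 5.12% of all genes higher at that limit and 5.97%, 5.85% and 3.46% lower. The differences of the members went together, so these counts are not counts of independent genes.

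Thy1, which encodes the CD90 of the sorting gate, read 1509, 301 and 755 in MICs against 16.9, 21.1 and 12.6 in non-MICs, so that every pair, pair 3 included, was apart in the sorted marker. Its log2 difference was 5.32 ± 0.62 (SE), with a limma adjusted p of 0.816 without the block and 5.3e-05 with it. Cd24a, the gene of the other gate, read 11309, 19406 and 17276 in MICs against 14009, 14883 and 18754 in non-MICs, and the populations overlapped.

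Rpl22l1 (gene at chr3:28805436-28807424, + strand, GRCm38) was the member with the largest difference. It is a paralog of Rpl22, an RNA-binding protein of the large subunit, and can take its place in the ribosome. Its values were 7495, 14184 and 6701 in MICs against 4841, 4127 and 7709 in non-MICs. MIC 2 stood far above the other libraries, and in pair 3 the non-MIC library was the higher of the pair. The log2 difference was 0.74 ± 0.35 (SE), with a limma adjusted p of 0.418 with the block and an edgeR adjusted p of 0.0451 with the block, and by pair it was 0.63, 1.78 and -0.20. Rpl22 itself read 13165, 16785 and 10924 in MICs against 9341, 9714 and 11435 in non-MICs, a smaller difference of the same order of pairs, 0.49, 0.79 and -0.066.

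Rps27l, a paralog of Rps27 known as a target of p53, varied more over the libraries than Rps27, with 11207, 24926 and 5099 in MICs against 8164, 10050 and 6419 in non-MICs. MIC 2 was again highest, both replicate 3 libraries were lowest, and without MIC 2 the sign of the difference turned. Rps27, a zinc-finger protein of the small subunit, read 15647, 18271 and 11038 in MICs against 9847, 8639 and 10922 in non-MICs. Every MIC library was above every non-MIC library, the 2 of pair 3 by a margin of 0.015 on the log2 scale, and the log2 difference was 0.59 ± 0.24 (SE; limma adjusted p = 1.00, and 0.418 with the block). Rpl7l1, which takes part in ribosome assembly, read between 5548 and 7028 in MICs, with 4608 to 6452 in non-MICs, beside 47844 to 50744 and 31819 to 51043 for Rpl7. Rpl36al read between 141 and 152 in MICs, with 90.9 to 168 in non-MICs, beside 8728 to 9363 and 6710 to 8583 for Rpl36a, and all of its windows of coding sequence are shared with other genes. Rpl39 read between 7976 and 12010 in MICs, with 5912 to 8239 in non-MICs, and Rpl3 between 40363 and 47171 and between 33391 and 41525. The paralogs Rpl39l, known from the male germ line, and Rpl3l, known from muscle, were near the limit of counting: Rpl39l had at most 2 reads in a library, and Rpl3l had 9 reads in MIC 1 and none in MICs 2 and 3.

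**Figure D3:**
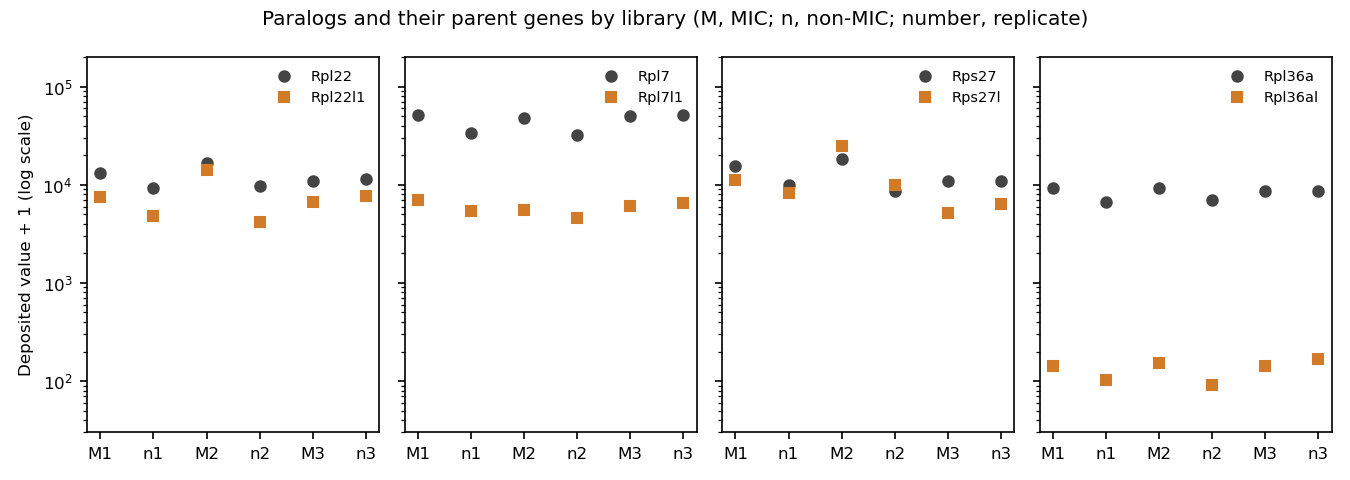
Deposited values plus 1, on a log axis, of 4 paralogs (squares) and their parent genes (circles) in each library. Rpl22l1 and Rps27l are highest in MIC 2, at 14184 and 24926, while Rpl36al stays between 90.9 and 168 in all libraries.

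The stalk of the large subunit, which recruits the elongation factors, is built of Rplp0, Rplp1 and Rplp2. Rplp0 read 63967, 64984 and 47014 in MICs against 48242, 61634 and 46254 in non-MICs. Rplp1 read 49406, 53946 and 14099 in MICs against 37406, 43143 and 13285 in non-MICs, and Rplp2 read 25719, 24260 and 6769 against 20203, 22544 and 6421. All 3 were higher in MICs in every pair, by 0.41, 0.076 and 0.024 for Rplp0, while for Rplp1 and Rplp2 the replicate 3 libraries of both populations were lowest. Their log2 differences were 0.17 ± 0.23 for Rplp0, 0.27 ± 0.62 for Rplp1 and 0.18 ± 0.64 for Rplp2 (SE) without the block, and leaving out MIC 1, MIC 2 or non-MIC 3 then turned the sign for Rplp1 and Rplp2. With the block the SEs of Rplp1 and Rplp2 were 0.19 and 0.18, the sign stayed with each pair left out, and the limma adjusted p was 0.604 and 0.725.

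Among the other members of the large subunit, the largest differences were those of Rpl9, Rpl35a, Rpl5, Rpl31 and Rpl17. Rpl9 read 39864, 53349 and 29954 in MICs against 24023, 22509 and 32180 in non-MICs, with a log2 difference of 0.62 ± 0.27 (SE). Rpl35a had a log2 difference of 0.55 ± 1.04 (SE), with its replicate 3 libraries far below the others, and its sign turned without MIC 2 or non-MIC 3. With the block its SE was 0.21 (limma adjusted p = 0.418). Rpl5, which with Rpl11 and the 5S rRNA forms a particle that can bind Mdm2, read 26585, 29913 and 23340 in MICs against 16968, 15714 and 23614 in non-MICs. Rpl11 went the same way with smaller steps, 0.46, 0.45 and -0.022 by pair. Rpl31, which lies at the exit of the peptide tunnel, read 14459, 16734 and 13936 in MICs against 9656, 8773 and 13647 in non-MICs, so that the populations did not overlap. For Rpl17 the differences by pair were 0.55, 1.08 and -0.18. At the other end, Rpl28 read between 9930 and 11810 in MICs, with 11180 to 12270 in non-MICs, and Rpl13 read 14551, 11028 and 6523 in MICs against 13596, 11396 and 6504 in non-MICs, with a log2 difference of 0.018 ± 0.38 (SE). These 2 genes did not share the step of the others in pairs 1 and 2.

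In the small subunit the largest differences after that of Rps27 were those of Rps25, Rps7, Rps24, Rps27a and Rps3. Rps25 read 19780, 28644 and 17929 in MICs against 13230, 13077 and 19006 in non-MICs, with a log2 difference of 0.54 ± 0.26 (SE). Rps24 read 34906, 55203 and 34175 in MICs against 24200, 22546 and 39533 in non-MICs, and by pair the difference was 0.53, 1.29 and -0.21. Rps7 read 19734, 24918 and 12386 in MICs against 12688, 12418 and 12605 in non-MICs, with the pair 3 libraries close to the non-MICs of the other pairs. Rps27a, made as a fusion with ubiquitin, read 29481, 45661 and 28131 against 20590, 19163 and 32023. In all of these 4 genes, MICs 1 and 2 were above non-MICs 1 and 2, and non-MIC 3 was above MIC 3. Rps3, at the entry of the mRNA channel, is of interest because none of its coding windows is shared with another gene: it read 59423, 70782 and 47669 in MICs against 36791, 38398 and 49714 in non-MICs, differences of 0.69, 0.88 and -0.061 by pair. Rps6, the substrate of the S6 kinases, was higher in pairs 1 and 2 by 0.49 and 0.79 and lower in pair 3 by 0.074 on the log2 scale, which is a statement on its mRNA and not on its phosphorylation. Rpsa, known also as the laminin receptor, read 55818, 60783 and 43983 in MICs against 37674, 44065 and 42159 in non-MICs, higher in every pair. Rps2 read 39320, 23588 and 19060 in MICs against 36151, 33226 and 19746 in non-MICs, and was lower in MICs in pairs 2 and 3. Rps26 had differences of 0.19, 0.28 and -0.10. The 3 genes with the highest value in pair 3, Rps29, Rps15 and Rpsa, were higher there by 0.12, 0.068 and 0.061, and Rps29, another small zinc-finger protein, read 15094, 15539 and 8198 in MICs against 11814, 11769 and 7530.

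Levels per kilobase of coding sequence, averaged over the 6 libraries, had a median of 31260 for the large and 46020 for the small subunit, with quartiles of 19610 and 45640 for the large and 32420 and 55160 for the small. The highest level was that of Rpl41, at 243600 per kilobase, whose coding sequence is 75 bases long and whose mean value before division was 18268. Reads were counted per gene, untranslated parts included, and divided by the coding length alone, so short coding sequences can read too high. At the low end, 4 genes of the large and 1 of the small subunit were far below their subunit's median: Rpl3l, Rpl39l, Rpl24, Rpl36al and Rps10. Rpl24 and Rps10 are not tissue-specific paralogs but standard members of the ribosome, and they read between 11.9 and 56.7 and between 41.2 and 155 in all libraries. For Rpl24 all windows of 75 bases, the read length, were shared with another annotated gene, and for Rps10 90.7% were. Their differences, -0.31 ± 0.73 and -0.39 ± 0.56 (SE), were smaller than their errors, and with the values of their copies added they changed direction, to 0.28 for Rpl24 and 0.15 for Rps10. So summed, Rpl24 still read only 70.1 to 229 and Rps10 213.7 to 440.5. The median of the mean values was 12870 in the large and 19060 in the small subunit. No values were held for Gm28037, with 80.6% of the windows of Rpl24, or for RPS10-NUDT3, with 90.7% of those of Rps10, and their part was not tested.

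Shared sequence was the rule. Of the 83 genes, 27 had every 75-base window of their coding sequence in at least 1 other annotated gene, 65 had at least 50% shared, and 8 had under 10%. Averaged over both populations, 11 of the 83 genes were in the replicate 3 libraries below 50% of their mean in replicates 1 and 2: Rpl35a, Rpl29, Rpl36, Rpl27a, Rplp2, Rpl34, Rplp1, Rps18, Rps21 and Rps27l, and with few reads Rpl3l. Rpl35a, which read 9848 and 11058 in MICs 1 and 2, with 6121 and 5344 in non-MICs 1 and 2, read 964 and 1033 in MIC 3 and non-MIC 3. Rpl29 read between 6214 and 7330 in the libraries of replicates 1 and 2, and 1233 and 1242 in those of replicate 3. Within the populations, these genes other than Rpl3l stood in replicate 3 at 9.23% to 28.6% of replicates 1 and 2 in MICs, with 18.02% to 70.5% in non-MICs. Rps27l, at 28.2% in MICs, was at 70.5% in non-MICs, and Rps18 was at 24.5% and 41.9%. The 11 genes had a median of 60.65% of windows shared, against 88% for the other 72 genes. The replicate 3 libraries were also the deepest, with 51759769 and 49904738 recovered reads against 31467281 to 33126717 in the others. A preparation or processing that differed between the numbers is not named in the sources used here, and its part in these values was not tested.

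Copies of members were high in the same libraries for some members. Gm10260, a single-exon gene tagged as a retrogene on chromosome 13 (coding sequence at chr13:97760130-97760588, - strand, GRCm38), holds a copy of Rps18, whose coding sequence lies on chromosome 17 (chr17:33952043-33955620, - strand). The coding sequences, 459 bases each with the stop codon, differ at 4 positions counted from the A of the start codon: T186C, A337C, G371A and G431A, with the base of Rps18 first. Bases 312 to 371 of both are shown because they hold 2 of these differences, in capitals.
Rps18: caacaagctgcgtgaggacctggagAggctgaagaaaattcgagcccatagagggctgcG
Gm10260: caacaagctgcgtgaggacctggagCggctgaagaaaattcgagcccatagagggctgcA

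Gm10260 read 7.55 and 12.2 in MICs 1 and 2, with 6.35 and 11.6 in non-MICs 1 and 2, and 12330 and 12760 in MIC 3 and non-MIC 3. Rps18 read 29563 and 33089 in MICs 1 and 2, was at 19188 and 19475 for non-MICs 1 and 2, and read 7663 and 8096 in MIC 3 and non-MIC 3. With its copies added, Rps18 was at 20010 in MIC 3 and 20880 in non-MIC 3, which is 80.6% of the mean of replicates 1 and 2, instead of 31.1%. Gm6472, a copy of Rps7, read between 34.9 and 67.9 in replicates 1 and 2 and 2240 and 2166 in replicate 3. Rpl3-ps1, a copy of Rpl3, read between 34.9 and 48.9 in replicates 1 and 2 and 1271 and 1182 in replicate 3. For Rpl35a, Rpl29, Rpl36, Rpl27a, Rpl34, Rplp1 and Rplp2 the added copies left replicate 3 between 12.7% and 29.8%. The copies that had values thus did not make up for the low level of these genes. Values were held for 5 of 10 copies of Rpl29, 8 of 9 of Rpl35a, and 2 of 3 each of Rpl36 and Rpl34. The part of the copies without values was not tested. Gm11942, with 14.93% of the windows of Rplp1, was not counted as a copy. It read at most 17.8 in replicates 1 and 2, and 949 and 1077 in MIC 3 and non-MIC 3. Adding copies to every member, an alternative chosen after seeing the data, left the subunits' medians between populations at 0.30 and 0.40 and the count of genes higher in every pair at 14.

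**Figure D4:**
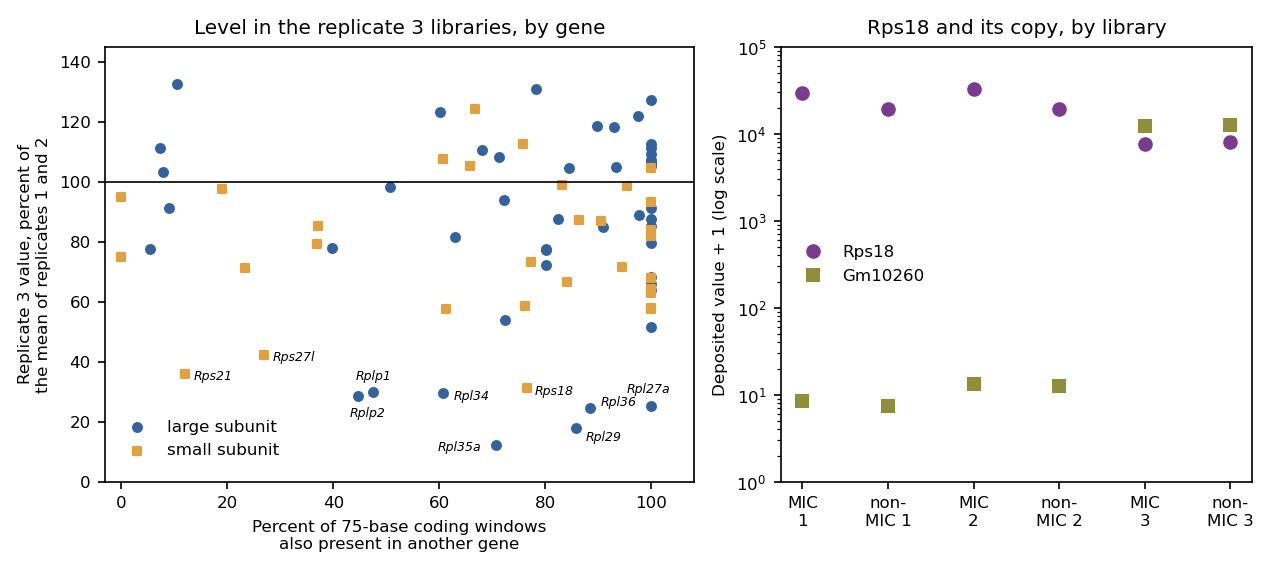
Left, the mean value of the replicate 3 libraries as a percent of the mean of the replicate 1 and 2 libraries, for each ribosomal protein gene with a mean value of at least 100, against the percent of its 75-base coding windows present in another gene, with the genes under 50% named. Right, values plus 1 of Rps18 and its copy Gm10260 by library on a log axis, where Gm10260 rises from at most 12.2 to 12330 and 12760 in replicate 3.

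The same order of pairs was found in other short transcripts. Of the members, 57 of 83 had a transcript under 1000 bases, against 7.17% of the other protein-coding genes. Among other protein-coding genes with a mean value of at least 100, the 539 with a transcript under 1000 bases had median differences of 0.37, 0.40 and -0.051 in pairs 1, 2 and 3. The 3528 with a transcript of 4000 bases or more had medians of -0.37, -0.087 and -0.045. Of the short ones, 43.2% had the MIC library higher in pairs 1 and 2 but not in pair 3, where it was lower, against 71.1% of the ribosomal protein genes and 6.69% of the longest class. For the 55 other genes with a mean value of at least 5000 and a transcript under 1000 bases the medians were 0.44, 0.35 and 0.015, and 27.3% had this order of pairs. Transcript length thus moved with the result, and its part in the result was not tested. The order of pairs counted here was picked from the members' own values, so their higher share of it is no test against the other classes. It was counted on the deposited scaling only, and under TMM factors 41 of the 83 members were higher in MIC 3. Mitochondrial ribosomal proteins (77 genes) had medians of 0.34, 0.36 and -0.070, and proteasome subunits (38 genes) had medians of 0.48, 0.23 and -0.027.

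**Figure D5:**
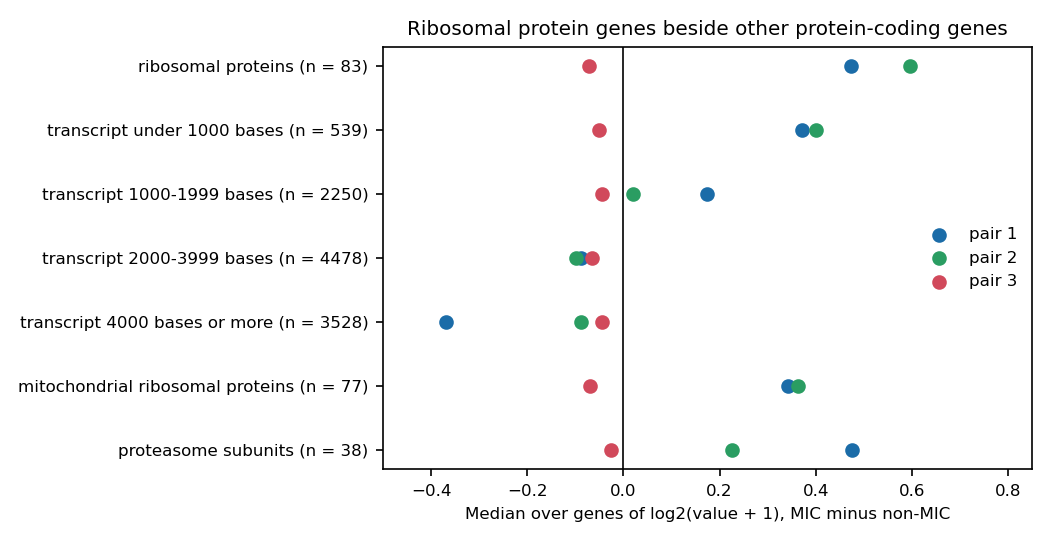
Median differences in pairs 1, 2 and 3 for the 83 ribosomal protein genes, for other protein-coding genes with a mean value of at least 100 in 4 classes of transcript length, and for mitochondrial ribosomal proteins and proteasome subunits. The medians of pairs 1 and 2 are 0.37 and 0.40 in the shortest class against -0.37 and -0.087 in the longest, and the ribosomal proteins lie at 0.47 and 0.60.

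Of the ribosomal proteins whose symbols the rule does not take, Rack1, a scaffold on the small subunit, read 71078, 63579 and 58259 in MICs against 51010, 50832 and 59726 in non-MICs. Fau, made as a fusion with a ubiquitin-like protein, read 12494, 12850 and 3883 in MICs against 8545, 9732 and 3677 in non-MICs, and so shared the low level of replicate 3. Rack1 had the order of most members, with the MIC library the higher in the first pairs and the lower in pair 3.

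The genes that make ribosomes and run translation did not move as 1 block. Over 192 genes of 5 lists (elongation factors, initiation factors, nascent chain factors, ribosome assembly factors, and regulators of TOP mRNAs and growth), limma called 0 genes and edgeR and DESeq2 called 0, with and without the block. Of all genes, limma, edgeR and DESeq2 called 0%, 0% and 0.00452% without the block, and 0.13%, 1.41% and 0.889% with it. At an unadjusted p under 0.05, limma found 1 gene higher without the block, beside 0.708% of all genes, and 17 higher and 18 lower with it, beside 5.24% and 5.97% of all genes. Without the block, edgeR found 4 higher and 0 lower at that limit, beside 0.807% and 0.515% of all genes. DESeq2 without the block found 7 higher and 0 lower, beside 0.998% and 0.203%. With the block, edgeR found 17 higher and 16 lower at that limit, beside 5.89% and 5.85% of all genes, and DESeq2 20 higher and 11 lower, beside 5.12% and 3.46%.

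For each list the 2 genes with the smallest p in these data were named, so the named genes do not stand for their list. The elongation factors (9 genes) had a median log2 difference of 0.27, with 8 of 9 higher in pair 1 and 5 of 9 in pair 2. Eef1b2, which reloads the elongation factor Eef1a1 with GTP, read 33464, 35429 and 25776 in MICs against 21830, 23403 and 26158 in non-MICs. Eef2, which moves the ribosome along the mRNA and was named after its values were seen, was lower in MICs in every pair, with differences of -0.33, -0.56 and -0.049. Eef1e1 had a log2 difference of 0.47 ± 0.24 (SE). The nascent chain factors (14 genes) had a median of 0.22, and Naca, which binds chains as they leave the ribosome, read 20054, 22795 and 16902 against 13176, 13598 and 16713. Srp14, of the signal recognition particle, had a log2 difference of 0.46 ± 0.23 (SE). The initiation factors (38 genes) had a median of 0.010, with 9 higher and 10 lower in every pair, beside 12.5% and 18.8% of all genes. Eif2s1, the regulated subunit of eIF2, read 11412, 14370 and 8866 in MICs against 7536, 7105 and 8854 in non-MICs, and Eif1ax had a log2 difference of 0.52 ± 0.23 (SE). The ribosome assembly factors (109 genes) had a median of -0.076, and 38 of them were lower in MICs in every pair while 6 were higher, beside 18.8% and 12.5% of all genes. Noc2l read 4762, 5266 and 6511 in MICs against 6946, 8039 and 7248 in non-MICs, and Nip7, a late assembly factor, went the other way with 3607, 4511 and 2670 against 2337, 2243 and 2801. The 22 regulators had a median of -0.30, with 11 lower and 2 higher in every pair, beside 18.8% and 12.5% of all genes. Other protein-coding genes with a mean value of at least 100 and a transcript of 4000 bases or more had medians of -0.37, -0.087 and -0.045 by pair. The regulators had medians of -0.42, -0.28 and -0.030, and the part of transcript length in their values was not tested. Among them Rptor, the mTORC1 scaffold, read 1527, 1725 and 2562 in MICs against 2631, 2814 and 2712 in non-MICs, and Larp1, which binds TOP mRNAs, read 5557, 7900 and 10930 against 11526, 11962 and 11122. In both, every MIC library was below every non-MIC library (3.55% of all genes), which their choice by p made likely. Neither passed the adjusted threshold, with a limma adjusted p of 0.417 for Rptor and 0.418 for Larp1 with the block.

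The sorted populations also differed in cell type markers. The 5 basal markers summed to 293600, 7805 and 33730 in MICs against 74560, 6649 and 22100 in non-MICs, and 4 of the 5 were higher in MICs in every pair, pair 3 included. Of 7 fibroblast markers 4 were higher in every pair, with sums of 669.6 to 2154 in MICs, with 584.9 to 1107 in non-MICs. The 6 luminal markers summed to 590200, 211700 and 448900 in MICs against 698500, 277200 and 424100 in non-MICs. By gene, 1, 0 and 4 of the 6 were higher in MICs in pairs 1, 2 and 3. The 7 immune markers in the table summed to 151, 1738 and 275.9 in MICs against 152.4, 995.3 and 267.9 in non-MICs, so that both replicate 2 libraries were highest, MIC 2 above all, through Lyz2 (1635 and 834 there), while Ptprc, the gene of CD45, read at most 10.0 and was at 0 in MIC 1 and non-MIC 1. MIC 2 was also the library with the largest ribosomal protein share (5.93%). MIC 1, with the lowest immune sum, had a share of 5.34%, and non-MIC 2, with an immune sum of 995.3, had a share of 4.0%. The 5 endothelial markers summed to 31.78 to 51.76 in MICs, with 15.88 to 44.18 in non-MICs. The luminal markers, keratins among them, were present in every library. The part of the basal, fibroblast, luminal and immune markers in the ribosomal protein values was not tested.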

How the data were processed

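Stranded mRNA libraries of 3 MIC and 3 non-MIC samples were sequenced as 75-base paired reads, and the authors aligned them to the mouse transcriptome (GRCm38/mm10), counted reads per gene and scaled the counts. The paper names Bowtie2 and samtools and the submitters' processing notes name STAR and HTSeq, without versions. The deposited signal is this scaled count, which is a whole multiple of the worth of 1 read (0.676 to 1.11): division gave whole reads, within 0.01, for at least 99.99% of values, and 31467281 to 51759769 reads per library. Reads were not collapsed by molecular identifiers, so depth sets counting error only. No column of values was left unused.

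Symbols and positions came from GENCODE vM21 (GRCm38), which held 22161 of 22310 identifiers. limma 3.58.1 in R 4.3.3 (lmFit, eBayes with a trend) was run on log2(value + 1) of all genes without a filter, with Benjamini-Hochberg adjustment at 0.05 and without a block, since the study ranks genes by an unpaired measure. The recovered reads were tested with edgeR 4.0.16 (quasi-likelihood) and DESeq2 1.42.0. After subtraction of each population's mean, a MIC and a non-MIC library with one number correlated at 0.573 to 0.746. Those with different numbers correlated at -0.536 to -0.194. With 3 libraries per population, the subtraction itself pulls the different-number values below 0 where same-number values are above 0. Libraries with one number were treated as pairs and blocked values are given. A shared tumor and a shared batch cannot be told apart here. The tests were checked on simulated counts with 1 fixed dispersion and the same change in every pair. That check does not cover differences that vary between pairs, as those of the members did.

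A copy of a member is a gene outside the rule that holds at least 20% of the 75-base windows of the member's coding sequence (GENCODE transcripts). Members and lists were chosen with earlier results of these data known. Genes were named by rule: paralogs and their parents, stalk genes and Rpsa, members called with the block, Fau, Rack1, Thy1 and Cd24a. In each subunit the rule also took the 5 highest and 3 lowest differences and the 3 highest and 1 lowest of pair 3. Of each list it took the 2 genes with the smallest p in these data. Rpl11, Rps6, Rps18, Rps21, Rpl29, Rpl36, Rpl36a, Rpl27a, Rpl34, Rpl41 and the copies were named after their values were seen. Alternatives were the block, other pseudocounts, a filter, TMM and quantile scaling, no trend, edgeR, DESeq2 and left-out libraries. numpy and pandas in Python were used for the rest. Some genes are not reported here by name.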

Additional observations from a re-analysis of the deposited data

How the results depend on the processing

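The number of genes called over the whole table without a block was 0 in limma, and it rose to 29 with the replicate block, 315 with the block in edgeR, 133 with the block in DESeq2 and 1 in DESeq2 without it. With the block and 1 pair left out, limma called between 0 (without replicate 3) and 59 (without replicate 2) genes. The large subunit had 1 called gene with the block in edgeR, Rpl22l1, and 0 under each other alternative run, and the small subunit and the 192 genes of the translation lists had 0 under all of them. The pairing changed no other call among the members. The count of members higher in every pair was 14, 32 under TMM factors, and between 13 and 14 under the other alternatives. The cause of the difference was not tested beyond the construction of TMM, which moves the values of pair 3 by a small constant.

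The median differences stayed above 0 under all alternatives run, from 0.177 to 0.523 in the large and from 0.216 to 0.645 in the small subunit. Restricting the members to those at 50% or more in replicate 3, chosen after seeing the data, gave 0.307 and 0.364. With 1 library left out, the difference in library share was between 0.646 and 1.62 percentage points. Among 34 named members, 11 changed sign under at least 1 of 20 alternative fits: Rpl13, Rpl24, Rpl28, Rpl35a, Rpl3l, Rplp1, Rplp2, Rps10, Rps2, Rps26 and Rps27l. Groups of 3 limit the precision, and how reads were assigned among near-identical copies was not tested.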
